A study of Homo sapiens with 8 samples.

Results

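The genes described here are 9 whose transcripts are known to be recoded by ADAR enzymes: AZIN1, FLNA, COPA, NEIL1, BLCAP, COG3, IGFBP7, CYFIP2 and TMEM63B. They were taken by name from a deposited table of 19892 genes, listed there by NCBI gene number, and all 9 were found. The cells were MDA-MB-231, a human cell line from a triple-negative breast cancer, treated with control siRNA or with ADAR1 siRNA, and both their messenger RNA and their ribosome footprints were sequenced. Input libraries were made from RNA fragments of 40 to 60 nucleotides and Ribo-seq libraries from fragments of about 30 nucleotides, and both measured the 2 siRNAs in 2 libraries each, 8 libraries in all. The only difference the labels give between the groups of one assay is the siRNA, and a parental line without siRNA was not analysed here. The labels do not state separate cultures for the replicates, so p-values measure only how far these libraries differ, which may be technical. Less RNA per cell and fewer cells holding it cannot be told apart in such bulk samples.

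ADAR enzymes bind double-stranded RNA and deaminate adenosine to inosine, which ribosomes read as guanosine. Most such editing falls in noncoding repeats, but at a small number of coding positions it changes an amino acid, and these are called recoding sites. A serine codon of AZIN1, a tyrosine codon near the start of BLCAP, a glutamine codon of FLNA and a lysine codon of NEIL1 are among the well-known ones. ADAR1, encoded by ADAR, and ADAR2, encoded by ADARB1, share this work and prefer different sites. The values here are levels of whole transcripts and of their footprints. Editing at the sites themselves was not analysed here.

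ADAR was examined first as a check of the labels (NCBI gene 103; GRCh38.p14 chromosome 1, 154582057 to 154627997). Both ADAR1 siRNA libraries lay below both controls in each assay, and the knockdown was uneven between replicates. In Input, ADAR stood at 13.7% of its mean over the controls in ADAR1 siRNA replicate 1 and at 28.3% in replicate 2. In Ribo-seq these shares were 7.87% and 42.7%. The ADAR log2 fold change was -2.26 ± 0.32 in RNA, just outside the threshold (edgeR adjusted p = 0.0527), and -2.04 ± 0.47 in footprints, inside it (edgeR adjusted p = 0.0485). Total estimated counts ran from 10492223 to 17153716 per library. All 7 mesenchymal markers of the line reached at least 1 TPM in every group. Of the 3 hormone receptor and HER2 genes, 1 reached 1 TPM in each group, and ERBB2 alone passed the filter on low counts. The 3 summed to between 31.3 and 35.6 TPM in control Input. ESR1 was at 0 in both groups of Ribo-seq libraries but not in either group of Input libraries. Summed footprints of 6 luminal epithelial markers ran from 543.2 to 807.3 TPM with ADAR1 siRNA and from 1060.4 to 1289.2 TPM in controls, and 2 of the 5 tested fell; the part of this in the members' values was not tested.

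In control cells the 9 genes spanned a 389-fold range of RNA levels, in TPM, a read level scaled to transcript length and library depth. FLNA, an actin crosslinker, stood highest at 767.0 and 765.6 TPM in the control Input libraries, above 99.1% of all genes with a value above 0. The secreted protein gene IGFBP7 followed at 293.2 and 290.2 TPM, AZIN1 at 148.5 and 150.1, COPA at 104.3 and 101.3, and BLCAP at 68.5 and 72.7. TMEM63B stood at 44.6 and 45.5 TPM, above 73.5% of genes with a value above 0, and COG3 at 19.5 and 17.2, above 53.5%. CYFIP2, at 3.69 and 2.85 TPM, and NEIL1, at 2.43 and 1.51, lay lowest. No neighbours in this order overlapped between the control Input libraries, and the order was the same with ADAR1 siRNA.

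Footprint levels followed a different order. IGFBP7 led at 329.4 and 325.6 TPM in the control Ribo-seq libraries. BLCAP came next at 65.9 and 63.9 TPM and overlapped FLNA, at 49.1 and 66.9, so these neighbours did not differ beyond their spread. COPA held 27.4 and 32.6 TPM, TMEM63B 16.3 and 13.9, AZIN1 14.3 and 12.1, and COG3 4.75 and 4.13. TMEM63B and AZIN1 overlapped, as did NEIL1 (0.400 and 0.744 TPM) and CYFIP2 (0.477 and 0.375 TPM) at the bottom. With ADAR1 siRNA, COPA was next below TMEM63B instead of above it, and their libraries overlapped.

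**Figure D1:**
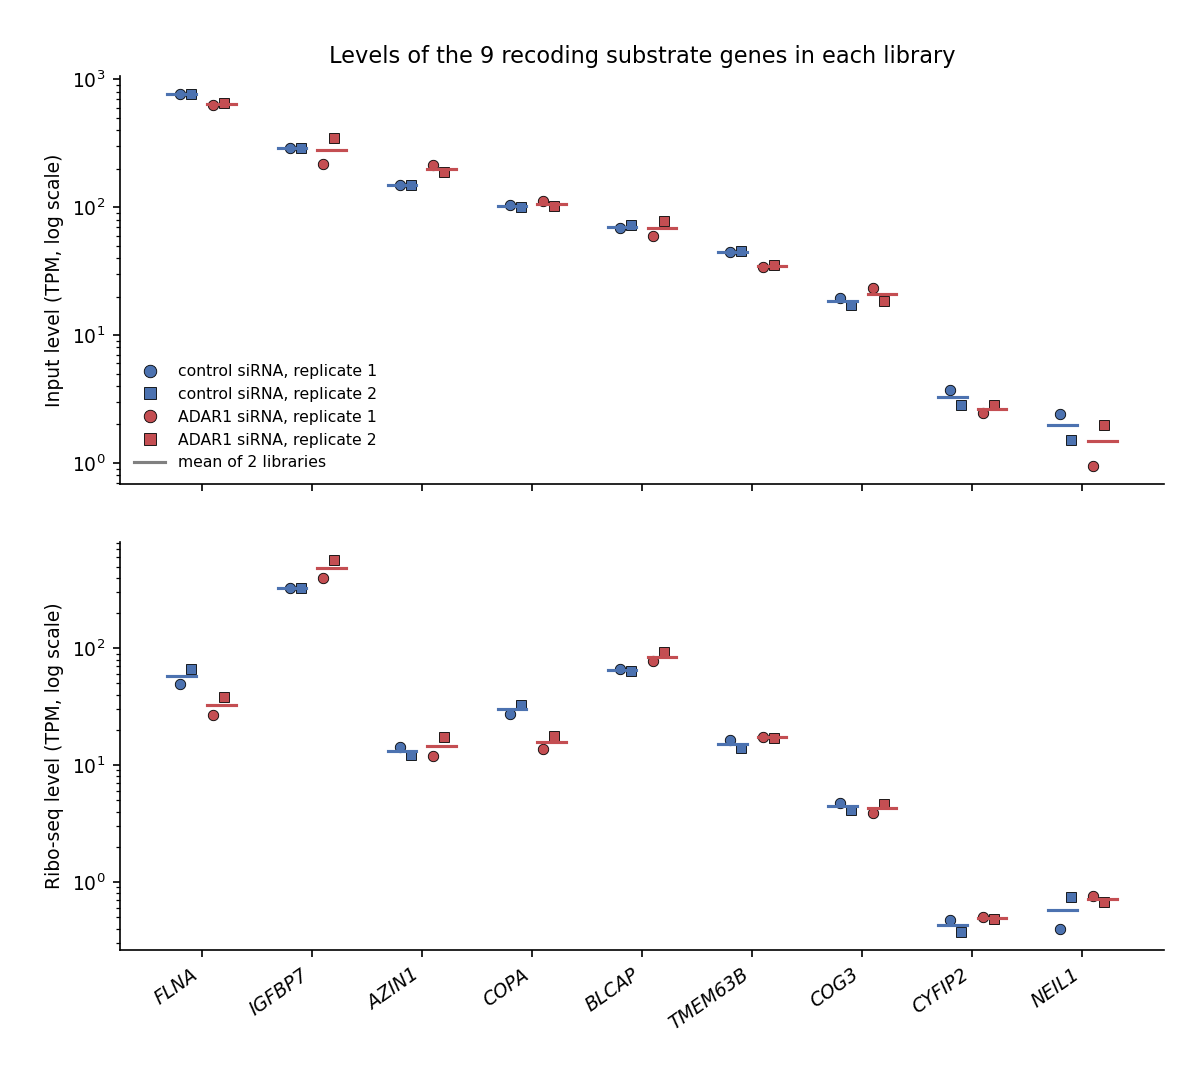
RNA (Input, upper panel) and footprint (Ribo-seq, lower panel) levels of the 9 genes in TPM on a log scale, 1 point per library with bars at the mean of 2 libraries. The 2 ADAR1 siRNA libraries of COPA (13.7 and 17.6 TPM) lie below both controls in Ribo-seq and overlap them in Input.

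The lengths behind these TPM values differed between the assays, which bears on levels compared across them. Dividing counts by TPM gave the length assigned to each gene relative to FLNA. BLCAP was assigned 0.239 of the length of FLNA in Input and 0.0371 in Ribo-seq, AZIN1 0.501 and 0.144, and TMEM63B 0.388 and 0.321. The sources used here do not give how lengths were set. For some members the assigned Ribo-seq length also varied between libraries, so their TPM values and counts differ in their ratios. Relative to FLNA it ran from 0.131 to 0.162 for AZIN1 and from 0.113 to 0.146 for NEIL1. For COG3 it ran from 0.262 to 0.293 and for CYFIP2 from 0.449 to 0.472. In Input the widest range was that of NEIL1, 0.247 to 0.305. The edgeR, DESeq2 and limma-voom tests use counts and no lengths, whereas limma on log2 TPM, the deposited ratios and the overlap of TPM ranges carry them.

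After ADAR1 siRNA, footprints of COPA fell 1.80-fold and footprints of IGFBP7 rose 1.57-fold, while RNA of COPA and of IGFBP7 did not pass the test. No member passed in RNA or in translational efficiency. In RNA, 0 of 9 members passed by edgeR's quasi-likelihood test at an adjusted p under 0.05, where 0.253% of all 12644 tested genes did (0.0791% higher and 0.174% lower). At an unadjusted p under 0.05 there were 3 members (AZIN1, TMEM63B and FLNA), against 25.3% of all genes. DESeq2 called 2, AZIN1 and FLNA, where it called 4.46% of the genes with an adjusted p, and limma-voom called 0. NEIL1 and CYFIP2 had no DESeq2 adjusted p in any comparison. In Ribo-seq, 2 of 9 passed, against 3.54% of 12000 tested genes, with 1 higher (background 1.88%) and 1 lower (background 1.67%). At an unadjusted p under 0.05 there were 4, COPA, IGFBP7, FLNA and BLCAP, against 24.0% of all genes. In translational efficiency, the difference between the footprint and RNA changes, 0 of 9 passed by edgeR, against 0.0463% of 12953 genes (0.0154% higher and 0.0309% lower). There 4 had an unadjusted p under 0.05 (COPA, TMEM63B, IGFBP7 and BLCAP), against 22.7% of all genes, and limma-voom called 0. DESeq2 called 2, COPA and TMEM63B, where it called 10.8% of the genes with an adjusted p.

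Medians over the 9 members were -0.05 in RNA, 0.27 in Ribo-seq and 0.54 in translational efficiency on the log2 scale, beside 0.00, 0.05 and 0.09 over all genes tested. The TPM values of the 2 siRNAs did not overlap for 4 members in Input, against 57.1% of all tested genes. AZIN1 was the 1 higher (background 29.2%) and FLNA, CYFIP2 and TMEM63B were the 3 lower (background 27.9%). In Ribo-seq 6 members did not overlap, against 54.3% of genes. There 4 were higher (BLCAP, IGFBP7, CYFIP2 and TMEM63B; background 23.0%) and 2 lower (COPA and FLNA; background 31.2%). All 9 members passed the filter on low counts in both assays.

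**Figure D2:**
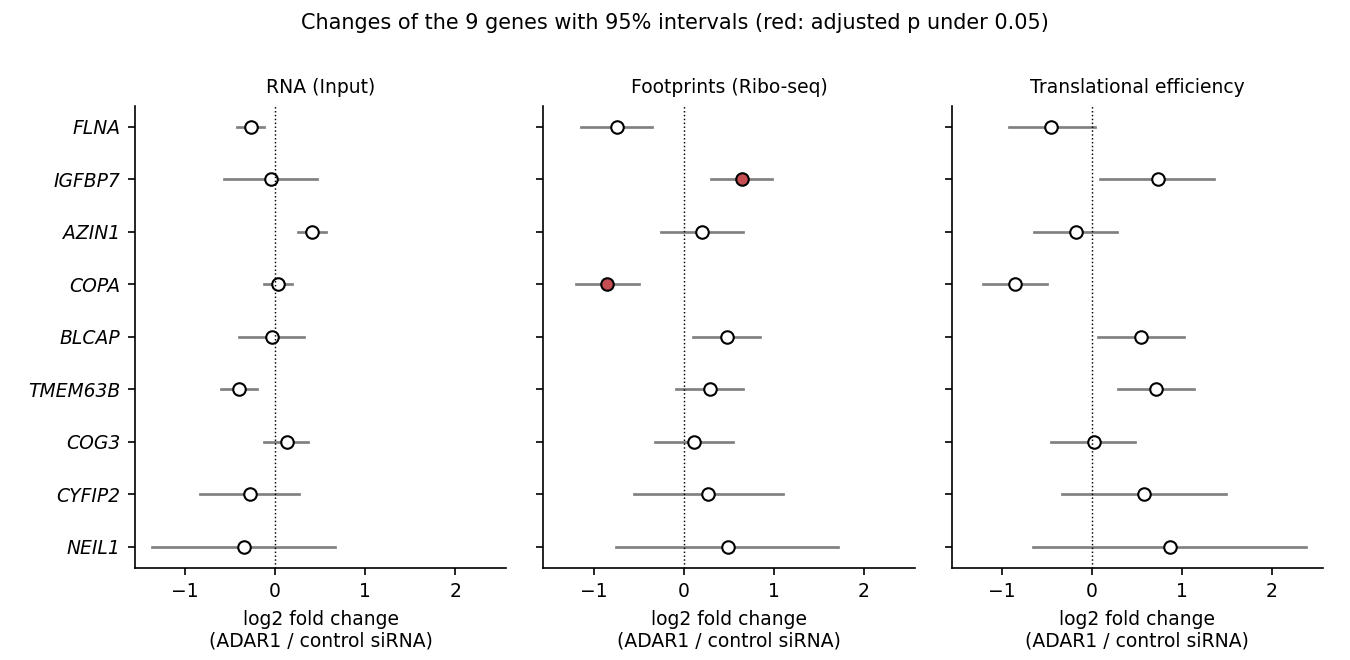
The log2 fold change of each gene (ADAR1 siRNA over control siRNA) in RNA, footprints and translational efficiency, with 95% intervals from edgeR; filled red points passed an adjusted p under 0.05. COPA (-0.85) and IGFBP7 (0.65) passed in footprints, and NEIL1 and CYFIP2 have the widest intervals in each panel.

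**Figure D3:**
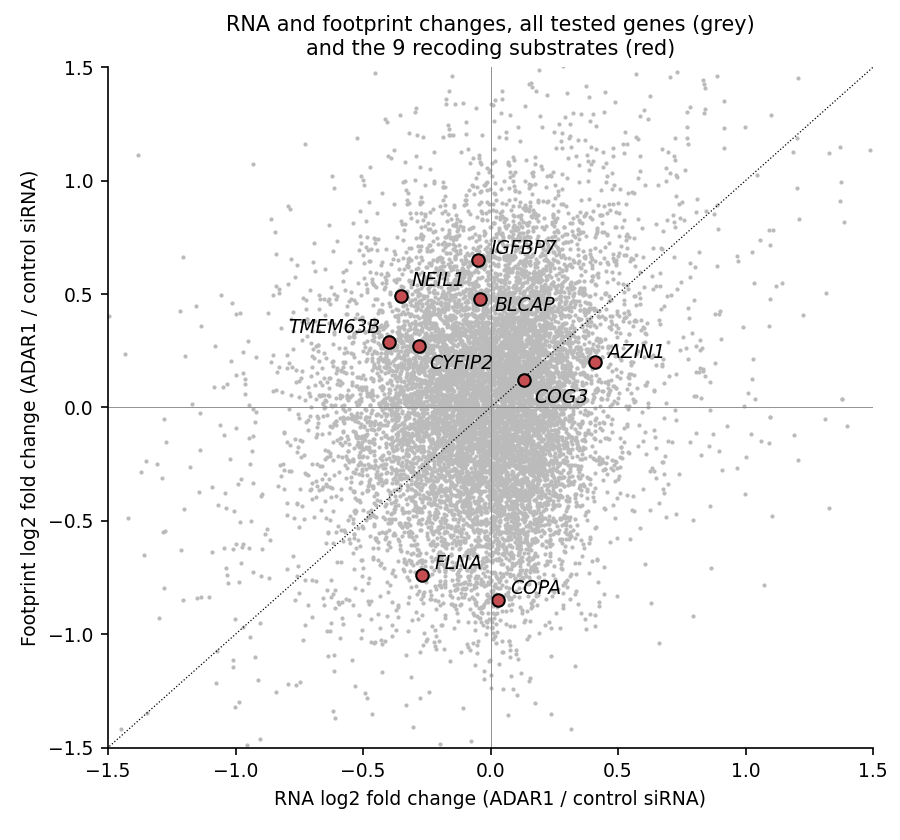
RNA change (x axis) against footprint change (y axis) on the log2 scale, with 11618 of the 11743 genes tested in both assays inside the axes (grey), the 9 members in red and the line of equal change dotted. COPA and FLNA lie lowest among the members on the footprint axis, and IGFBP7 lies highest with an RNA change near 0.

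COPA encodes the alpha subunit of the COPI coat, which carries cargo back from the Golgi to the endoplasmic reticulum (NCBI gene 1314; chromosome 1, 160288594 to 160343250). Its RNA stood at 104.3 and 101.3 TPM with control siRNA and at 111.6 and 101.4 TPM with ADAR1 siRNA. These groups overlapped, and the log2 fold change of 0.03 had a 95% interval from -0.12 to 0.19. Footprints stood at 27.4 and 32.6 TPM with control siRNA and at 13.7 and 17.6 TPM with ADAR1 siRNA. Both ADAR1 siRNA libraries were thus below both controls, at 45.7% and 58.7% of the control mean. The footprint log2 fold change was -0.85 ± 0.16 (SE; edgeR adjusted p = 0.0346). It was -0.74 without control Ribo-seq replicate 2, a fit with 1 control library in which the call was lost. The interaction of assay and siRNA gave a translational efficiency change of -0.86 ± 0.16, which just missed the threshold (edgeR adjusted p = 0.0534; 95% interval -1.21 to -0.50). DESeq2 called it at -0.87.

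Other subunits of the coat had footprint values on both sides of 0. Of 11 COPI coat and coat-recruitment genes tested in Ribo-seq, COPA fell, none rose and 10 did not pass, with a median log2 of -0.35 against 0.05 over all genes, 8 values below 0 and 3 above. COPB1, the beta subunit, had footprints of 40.0 and 48.7 TPM in controls and 21.8 and 30.2 TPM with ADAR1 siRNA (log2 -0.68 ± 0.16, edgeR adjusted p = 0.0514). ARCN1, the delta subunit, had a value of -0.55 ± 0.14 (edgeR adjusted p = 0.0581). The subunit genes COPB2 (-0.75 ± 0.20) and COPG1 (-0.67 ± 0.18), singled out after their values were seen, had edgeR adjusted p-values of 0.0645 and 0.0630. The epsilon and zeta subunit genes COPE (0.10 ± 0.14) and COPZ1 (0.31 ± 0.18) lay above 0 and did not pass. For COPB1, ARCN1, COPB2 and COPG1 both ADAR1 siRNA Ribo-seq libraries lay below both controls. In RNA 0 of the 11 tested passed by edgeR, with a median of 0.07, and COPB1 and COPB2 were higher in both ADAR1 siRNA Input libraries than in both controls. Their translational efficiency values were -0.76 ± 0.18 for COPB1, -0.87 ± 0.22 for COPB2 and -0.60 ± 0.15 for ARCN1, beside 0.44 ± 0.15 for COPE and 0.09 ± 0.22 for COPZ1, and none passed. Over the list 8 of 12 lay below 0 in translational efficiency and 4 above.

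COG3 encodes a subunit of the conserved oligomeric Golgi complex, a tether for vesicles within the Golgi (NCBI gene 83548; chromosome 13, 45464939 to 45536701). Its RNA stood at 19.5 and 17.2 TPM in controls and 23.2 and 18.4 TPM with ADAR1 siRNA, and its footprints at 4.75 and 4.13 against 3.90 and 4.69 TPM. The groups overlapped in both assays. Log2 fold changes were 0.13 ± 0.10 in RNA and 0.12 ± 0.19 in footprints, with 95% intervals from -0.12 to 0.37 and from -0.32 to 0.55. The translational efficiency change was 0.02 (interval -0.45 to 0.48), and its sign was negative in several alternatives. Of the 8 COG genes 0 passed by edgeR in any comparison. The footprint median of the complex was -0.24, with 6 of 8 below 0, and its lowest values were COG8 (-0.65 ± 0.22, edgeR adjusted p = 0.121) and COG5 (-0.47 ± 0.19, edgeR adjusted p = 0.166).

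IGFBP7, a secreted glycoprotein related to the insulin-like growth factor binding proteins, was the member with the most footprints per length (NCBI gene 3490; chromosome 4, 57030773 to 57110385). RNA stood at 293.2 and 290.2 TPM in controls, and the ADAR1 siRNA replicates fell on either side of them at 218.7 and 345.2 TPM. The RNA log2 fold change of -0.05 therefore had a wide 95% interval, from -0.57 to 0.46, and it was 0.27 with ADAR1 siRNA replicate 1 left out and -0.47 with replicate 2 left out. Footprints stood at 329.4 and 325.6 TPM in controls and at 402.0 and 566.8 TPM with ADAR1 siRNA. Both ADAR1 siRNA libraries were higher, and replicate 2 was the higher of them, as in Input. The footprint log2 fold change was 0.65 ± 0.15 (edgeR adjusted p = 0.0490), close to the threshold. Leaving out control Ribo-seq replicate 1 (0.67) or replicate 2 (0.62), or scaling by the DESeq2 size factors in edgeR (0.62, edgeR adjusted p = 0.0511), ended the call, as did limma-voom.

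The deposited translational efficiency of IGFBP7, a ratio of Ribo-seq TPM to Input TPM, was 1.12 in both controls and 1.84 and 1.64 with ADAR1 siRNA. The ratio varied less between the ADAR1 siRNA replicates than the RNA or the footprints did. The interaction gave 0.73 ± 0.29 and did not pass (edgeR adjusted p = 0.165; 95% interval 0.09 to 1.36). The gene POLR2B, which encodes an RNA polymerase II subunit, shares 386 bases with IGFBP7, and the sources used here do not give whether counting used the strand.

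Among the 6 IGF-binding protein genes tested in Ribo-seq, IGFBP7 and IGFBP3 rose (background 1.88%) and 4 did not pass. IGFBP3, the main carrier of insulin-like growth factors in serum, had footprints of 24.2 and 27.6 TPM in controls and 35 and 56.1 TPM with ADAR1 siRNA (log2 0.90 ± 0.20, edgeR adjusted p = 0.0443). Its RNA value was 0.74 ± 0.22 and did not pass. IGFBP6 differed in RNA by -0.76 ± 0.16, from 37.7 and 40.8 TPM to 26.7 and 20.3 TPM, with an edgeR adjusted p of 0.0767. All 6 genes, IGFBP7 included, had translational efficiency values above 0, as had 7425 of all 12953 tested genes. Their median was 0.75 against 0.09 over all genes, and 0 passed by edgeR. Among them IGFBP2 (0.79 ± 0.85) was not tested in RNA.

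FLNA encodes filamin A, which crosslinks actin and links it to integrins at the membrane (NCBI gene 2316; chromosome X, 154348531 to 154374634). It was the member with the most counts, 35171 to 45299 per Input library. RNA stood at 767.0 and 765.6 TPM in controls and at 633.7 and 650.4 TPM with ADAR1 siRNA, without overlap. Footprints stood at 49.1 and 66.9 TPM in controls and at 26.9 and 38.4 TPM with ADAR1 siRNA. Both assays thus had their 2 ADAR1 siRNA libraries lowest, with replicate 1 the lower. The RNA log2 fold change was -0.27 ± 0.06 (edgeR adjusted p = 0.0852) and the footprint change -0.74 ± 0.18 (edgeR adjusted p = 0.0514), so neither passed. FLNA passed in Ribo-seq with DESeq2 (-0.78, adjusted p = 0.00158) and with the DESeq2 size factors in edgeR (-0.77, adjusted p = 0.0465). Translational efficiency differed by -0.45 ± 0.21 (95% interval -0.92 to 0.03).

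Of 11 filamin and partner genes tested in Ribo-seq, ITGB1, the beta 1 integrin subunit, rose (0.83 ± 0.14, edgeR adjusted p = 0.0334) and 10 did not pass. VIM, the intermediate filament protein vimentin, had a footprint value of -0.78 ± 0.20 (edgeR adjusted p = 0.0583). The list's median was -0.01.

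CYFIP2 is a subunit of the WAVE complex, which activates branched actin assembly downstream of RAC1 (NCBI gene 26999; chromosome 5, 157266123 to 157395594). It was scarce: 73.0 to 107 counts per Input library and 21.1 to 43.1 per Ribo-seq library. RNA stood at 3.69 and 2.85 TPM in controls and at 2.46 and 2.82 TPM with ADAR1 siRNA, and footprints at 0.477 and 0.375 against 0.506 and 0.484 TPM. The groups did not overlap in either assay, by a narrow margin in each. Neither the RNA change (-0.28 ± 0.23) nor the footprint change (0.27 ± 0.37) passed, and at this depth the intervals, -0.83 to 0.27 and -0.55 to 1.10, include changes in either direction. The deposited translational efficiency was 0.129 and 0.131 in controls and 0.206 and 0.171 with ADAR1 siRNA.

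Its paralogue CYFIP1 was the more abundant, at 39.4 and 39.1 TPM in control Input. CYFIP1 footprints fell from 12.2 and 15.7 TPM to 6.14 and 9.02 TPM (log2 -0.80 ± 0.18, edgeR adjusted p = 0.0463), whereas its RNA value was -0.14 ± 0.07 and its translational efficiency value -0.64 ± 0.20 (edgeR adjusted p = 0.0977), neither past the threshold. Of the 10 WAVE complex genes tested in Ribo-seq it alone passed. ABI2, an adaptor of the complex, had a value of 0.66 ± 0.19 (edgeR adjusted p = 0.0768), and the median was 0.23.

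**Figure D4:**
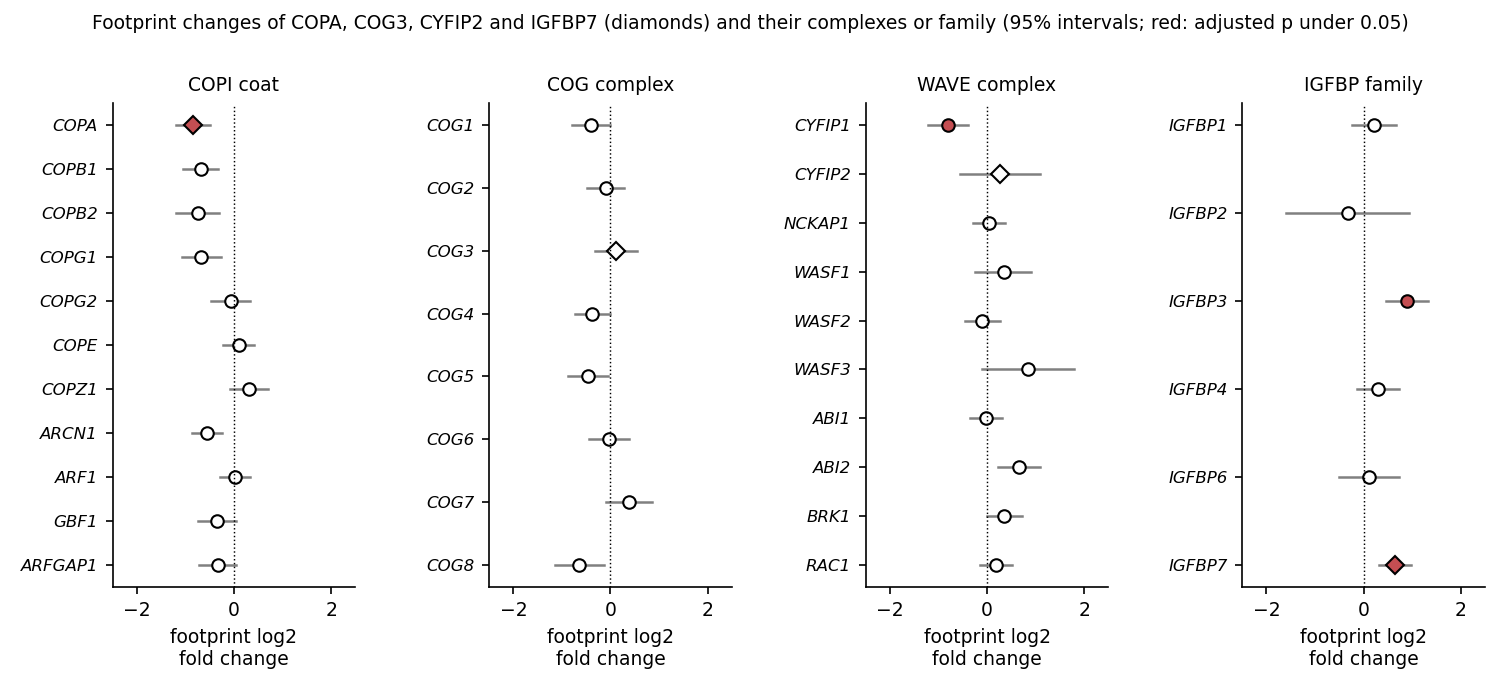
Footprint log2 fold changes with 95% intervals for the COPI coat, the COG complex, the WAVE complex and the IGF-binding protein family; diamonds mark COPA, COG3, CYFIP2 and IGFBP7, and filled red points passed an adjusted p under 0.05. COPA, COPB1, COPB2, COPG1 and ARCN1 lie below 0 with intervals that exclude 0, as do COG1, COG4, COG5, COG8 and CYFIP1. ABI2, IGFBP3, IGFBP7 and, barely, BRK1 lie above 0 with intervals that exclude it. In Ribo-seq 24.0% of all tested genes had an unadjusted edgeR p under 0.05.

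AZIN1 encodes antizyme inhibitor 1, which binds antizyme and so protects ornithine decarboxylase, the first enzyme of polyamine synthesis (NCBI gene 51582; chromosome 8, 102826302 to 102864200). RNA stood at 148.5 and 150.1 TPM in controls and at 212.9 and 187.7 TPM with ADAR1 siRNA. Both ADAR1 siRNA libraries were higher, at 142.6% and 125.7% of the control mean, and the higher value was in replicate 1. The RNA log2 fold change was 0.41 ± 0.07, a 1.33-fold difference with an edgeR adjusted p of 0.0672 (95% interval 0.25 to 0.57). DESeq2 called it at the same value. Without either control library the value was 0.40 or 0.42, and without either ADAR1 siRNA library it was 0.36 or 0.46. Such fits leave 1 library in a group, and their calls over all genes varied widely with the library left out. No call gained in them is therefore read for AZIN1. For other genes only calls lost in them are named, as a caution.

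Footprints of AZIN1 stood at 14.3 and 12.1 TPM in controls and at 12 and 17.4 TPM with ADAR1 siRNA, with overlap. The footprint change was 0.20 ± 0.21 (95% interval -0.25 to 0.66), and it was -0.12 without ADAR1 siRNA Ribo-seq replicate 2. Translational efficiency differed by -0.18 ± 0.21 (-0.64 to 0.28). With a deposited value of 0.0964 and 0.0803 in controls, AZIN1 lay above only 7.52% of tested genes in translational efficiency. FLNA, at 0.0640 and 0.0873, lay above 5.48% and overlapped AZIN1.

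In the polyamine pathway, 0 of 12 genes tested in RNA passed by edgeR, with a median of 0.13 and 10 above 0. ODC1, ornithine decarboxylase itself, stood at 291.1 and 283.7 TPM in control Input and 340.9 and 297.6 with ADAR1 siRNA (log2 0.13 ± 0.07), and its footprint value was 0.09 ± 0.18. In Ribo-seq SAT1, which acetylates spermidine and spermine for export or breakdown, rose and the other 11 did not pass. SAT1 footprints went from 15.7 and 12.8 TPM to 24.8 and 24.7 TPM (log2 0.89 ± 0.20, edgeR adjusted p = 0.0460). OAZ1, the antizyme that AZIN1 binds, had a footprint value of 0.32 ± 0.17 that did not pass.

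TMEM63B encodes a mechanosensitive ion channel of the OSCA/TMEM63 family (NCBI gene 55362; chromosome 6, 44126633 to 44155519). RNA stood at 44.6 and 45.5 TPM in controls and at 33.8 and 35.2 TPM with ADAR1 siRNA, both lower. Footprints stood at 16.3 and 13.9 TPM in controls and at 17.4 and 17.1 TPM with ADAR1 siRNA, both higher. The RNA change was -0.40 ± 0.08 (edgeR adjusted p = 0.0762; 95% interval -0.60 to -0.20) and the footprint change 0.29 ± 0.16 (edgeR adjusted p = 0.312), neither of which passed. The difference between them, the translational efficiency change, was 0.71 ± 0.19 (edgeR adjusted p = 0.0686; 95% interval 0.29 to 1.13), and DESeq2 called it. The deposited ratios were 0.365 and 0.306 in controls and 0.516 and 0.487 with ADAR1 siRNA. TMEM63B shares 820 bases with the neighbouring mitochondrial ribosomal protein gene MRPL14, which held 123 to 154 TPM in Input, so its own reads are not fully separable if counting ignored strand.

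TMEM63A, its closest relative in the list, had footprints of 7.66 and 8.73 TPM in controls and 11.5 and 13.6 TPM with ADAR1 siRNA (log2 0.68 ± 0.17, edgeR adjusted p = 0.0537), at an RNA value of -0.01 ± 0.08. Its translational efficiency value was 0.72 ± 0.16 (edgeR adjusted p = 0.0567). PIEZO1, another mechanosensitive channel, had an RNA value of -0.44 ± 0.06 (edgeR adjusted p = 0.0527). The scarce PIEZO2, at 13 to 44 counts per Input library, went the other way, with 1.33 ± 0.34 in RNA, -0.44 ± 0.39 in footprints and -1.74 ± 0.53 in translational efficiency (edgeR adjusted p = 0.0925, 0.531 and 0.0948). Of these channel genes 4 were tested in each comparison and 0 passed by edgeR. TMEM63C was listed at 0 in every Input library.

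BLCAP encodes a small membrane-associated protein first described in bladder cancer (NCBI gene 10904; chromosome 20, 37517417 to 37527876). RNA stood at 68.5 and 72.7 TPM in controls, between the ADAR1 siRNA libraries at 60.1 and 78.7 TPM. Footprints stood at 65.9 and 63.9 TPM in controls and at 77.3 and 92.5 TPM with ADAR1 siRNA, both higher. The RNA change was -0.04 ± 0.15 and the footprint change 0.48 ± 0.17 (edgeR adjusted p = 0.121; 95% interval 0.11 to 0.85). Translational efficiency differed by 0.54 ± 0.22 (edgeR adjusted p = 0.168), from deposited ratios of 0.962 and 0.879 to 1.29 and 1.18. The imprinted gene NNAT lies within the span of BLCAP and held 1 to 7 counts per Input library and 1 to 8 per Ribo-seq library, against at least 283 for BLCAP.

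NEIL1 encodes a DNA glycosylase that removes oxidised bases in base excision repair (NCBI gene 79661; chromosome 15, 75347039 to 75357115). It rested on the fewest counts, 16.0 to 33.1 per Input library and 8 to 17 per Ribo-seq library. RNA stood at 2.43 and 1.51 TPM in controls and 0.948 and 1.99 TPM with ADAR1 siRNA. Footprints stood at 0.400 and 0.744 against 0.764 and 0.670 TPM, and the TPM values overlapped in both assays. In CPM the Ribo-seq groups did not overlap, at 0.662 to 0.949 in controls and 1.12 to 1.13 with ADAR1 siRNA. Fold changes of -0.35 ± 0.42 and 0.49 ± 0.55 on the log2 scale had 95% intervals over 2 units wide, and no change was detectable at this depth. NEIL1 shares 1324 bases with MAN2C1, a mannosidase gene with 161 to 208 counts per Input library, so part of its few counts is uncertain. Among the 16 base excision repair genes, TDG, which removes thymine or uracil from mismatches with guanine, fell in Ribo-seq (-0.73 ± 0.17, edgeR adjusted p = 0.0490) and 15 did not pass. NTHL1, another glycosylase of oxidised bases, had values of -1.01 ± 0.19 in RNA and -0.62 ± 0.16 in footprints, with edgeR adjusted p-values of 0.0673 and 0.0581. The ligase gene LIG3 and the glycosylase gene NEIL3 had footprint values of -0.78 ± 0.19 and -0.59 ± 0.20, which did not pass.

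**Figure D5:**
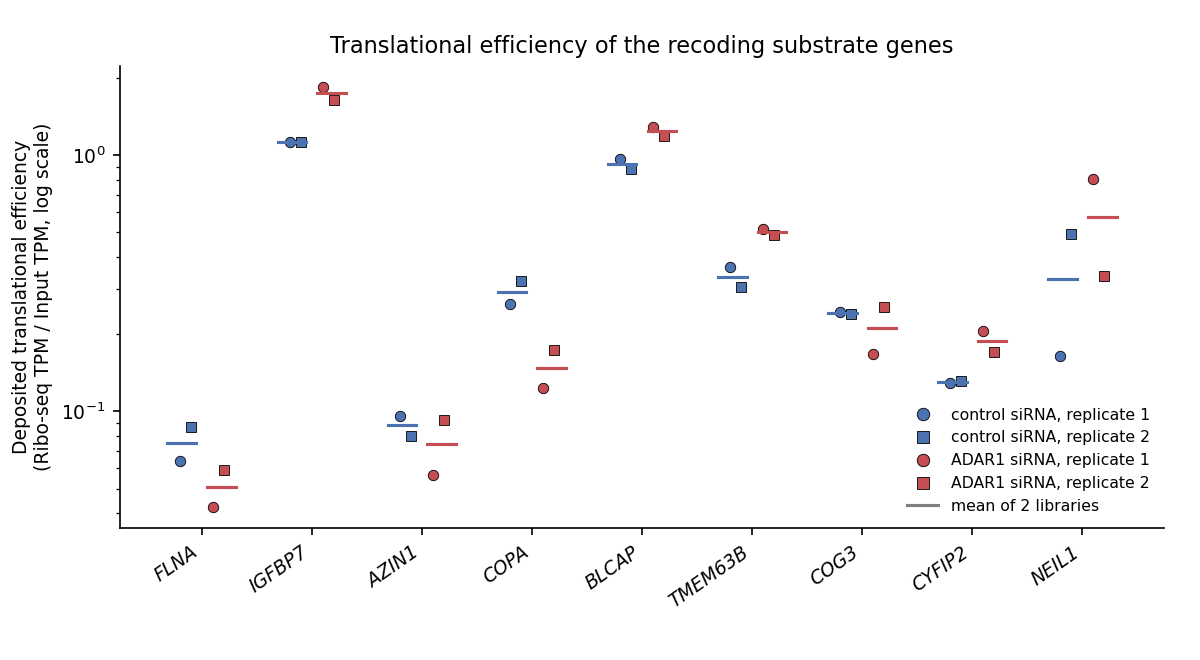
Deposited translational efficiency (Ribo-seq TPM over Input TPM, log scale) of the 9 genes for each Ribo-seq and Input pair of equal siRNA and number, with bars at the mean of 2 pairs. ADAR1 siRNA pairs lie above both controls for IGFBP7, BLCAP, TMEM63B and CYFIP2, below them for COPA and FLNA, and overlap for AZIN1, COG3 and NEIL1.

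Control translational efficiency differed widely among the members, from 0.0757 ± 0.0165 for FLNA to 1.12 for IGFBP7 (mean ± SD of 2 pairs for FLNA). This order rests on the lengths assigned in each assay. In CPM, without lengths, control means were 663.4 in Ribo-seq and 2681.6 in Input for FLNA and 21.9 and 261.6 for AZIN1, so AZIN1 and not FLNA had the fewer footprints per RNA read. BLCAP, at 27.6 CPM in Ribo-seq and 59.3 in Input, came below COPA, at 159.5 and 225.0 CPM. In the deposited ratios IGFBP7 lay above 84.4% of tested genes and BLCAP above 79.9%, whereas CYFIP2 lay above 14.5%. TMEM63B (45.0%), NEIL1 (44.3%), COPA (40.1%) and COG3 (32.8%) were in between. The deposited ratios of the 2 siRNAs did not overlap for 6 members, where 52.9% of genes with a ratio in all 4 pairs did not overlap. With ADAR1 siRNA 4 were higher (background 24.6%) and 2 lower (background 28.3%).

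A wider list of 28 further genes with known recoding sites, many of them neuronal, held 15 that were tested in RNA and 15 in Ribo-seq. None passed in RNA by edgeR, with a median of -0.04. SRP9, a signal recognition particle subunit, had a value of 0.35 ± 0.06 and GIPC1, a scaffold protein, of -0.51 ± 0.10 (edgeR adjusted p = 0.0672 and 0.0713). In Ribo-seq PODXL, a sialomucin of the cell surface, rose (1.09 ± 0.21, edgeR adjusted p = 0.0414) and 14 did not pass, among them CCNI, an atypical cyclin, at 0.90 ± 0.26. The PODXL libraries stood at 62.4 and 57.9 TPM in controls and at 85.9 and 157.9 TPM with ADAR1 siRNA. The footprint median of this list was 0.11 and its translational efficiency median 0.44.

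Of 15 tested genes for ADAR enzymes and reported regulators of editing, 3 fell in Ribo-seq (background 1.67%) and none rose (background 1.88%). These were ADAR itself, the target of the siRNA, FXR1 and DHX15. FXR1, an RNA-binding relative of the fragile X protein, had a footprint change of -1.02 ± 0.22 and DHX15, an RNA helicase, of -1.03 ± 0.21 (edgeR adjusted p = 0.0431 and 0.0428). Over the 15 genes, ADAR included, the footprint median was -0.31, against 0.05 over all genes tested. ADARB1, encoding ADAR2, was scarce in footprints (0.432 and 0.257 TPM in controls, 0.625 and 0.629 with ADAR1 siRNA) and overlapping in RNA at 10.5 to 11 TPM, with a translational efficiency value of 1.17 ± 0.34 that did not pass.

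Most footprint calls named here were lost in 2 alternative fits that also called fewer of all genes. COPA, IGFBP7, CYFIP1, IGFBP3, ITGB1, SAT1, TDG, PODXL, FXR1 and DHX15 each lost the call without control Ribo-seq replicate 2, and in limma on log2 TPM, and kept their direction in both. In limma on log2 TPM 0.111% of all genes were called. For IGFBP7, IGFBP3, SAT1 and TDG the call changed in 2 of the 4 fits with a library left out, so it was not tied to replicate 2 alone. ADAR lost its call in limma on log2 TPM and in DESeq2 (adjusted p = 0.149). In the fits without a control library the single remaining control was assumed to vary as the ADAR1 siRNA pair does.

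Patterns across the 8 libraries were compared on log2 CPM centred within each assay, so that r reflects the siRNA and the replicates and not the assay. Among 9736 candidates whose mean count reached 50 in both assays, COPA was most like NUP88 (Pearson r = 0.998), a nuclear pore gene, ZNF207 (0.997) and ACSL4 (0.996). FLNA was most like TBCC (0.997), VPS11 (0.996) and TMEM214 (0.995), and IGFBP7 like SCUBE3 (0.986), HS3ST3B1 (0.985) and GRN (0.983). AZIN1 was nearest to ZNF367 (0.989), TMEM63B to CENPB (0.989), BLCAP to ADAMTSL1 (0.982) and COG3 to STARD4 (0.970), whereas the scarce CYFIP2 and NEIL1 reached 0.940 with TMEM92 and 0.945 with RAB4B. These values describe 8 libraries that share controls and depth, and the highest of 9736 values is high by selection.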

How the data were processed

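RNA-seq (Input) and Ribo-seq libraries were grouped by their titles. Per the submitters' processing notes, cutadapt, Bowtie2, STAR and featureCounts were used with GRCh38 (hg38). The sources used here give no versions, roles or strand setting. The authors deposited estimated counts per gene without normalization, TPM per gene and library, and translational efficiency as a ratio of Ribo-seq TPM to Input TPM. Gene numbers were named from the RefSeq table of GRCh38.p14 (19669 of 19892 matched), whose 1-based coordinates are printed.

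Estimated counts were rounded and fitted over all genes with edgeR 4.0.16 in R 4.3.3 (TMM scaling, filterByExpr, two-sided quasi-likelihood tests, Benjamini-Hochberg at 0.05): the 4 Input libraries for RNA, the 4 Ribo-seq libraries for footprints, and all 8 with an interaction of assay and siRNA for translational efficiency. The standard error is the size of the log2 fold change over the root of the quasi-F statistic, and 95% intervals use the fit's degrees of freedom. With 2 libraries a group, the smallest two-sided p of an exact permutation test is 0.333. The code was checked on simulated counts. Alternatives used DESeq2 1.42.0, limma 3.58.1 on counts (voom) or on log2(TPM + 1), other scalings and filters, replicate blocks and left-out libraries. Members, gene lists and tests were chosen with earlier results of these data known. Named genes are the 9 members, ADAR, list members of smallest p, listed paralogues or partners, overlapping genes and the genes of most similar pattern. Exceptions are stated where they occur. Some listed genes are not reported here.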

Additional observations from a re-analysis of the deposited data

Results flagged for a closer look

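In TPM, RNA and footprint values moved in opposite directions in every ADAR1 siRNA library for TMEM63B and CYFIP2. For TMEM63B both ADAR1 siRNA libraries lay below both controls in Input and above both in Ribo-seq, and the tested difference between the assays was 0.71 on the log2 scale (edgeR adjusted p = 0.0686). For CYFIP2 the same held by a narrow margin in TPM but not in CPM, where the groups overlapped in both assays. Its tested difference was 0.58 (edgeR adjusted p = 0.439). Neither difference passed over all genes. The groups did not overlap for 57.1% of all tested genes in Input and 54.3% in Ribo-seq. The share of all genes with opposite directions in the assays was not counted, so the pattern may be common.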

How the results depend on the processing

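Counts of members called moved with the test more than fold changes did. In RNA, 0 of 9 became 2 with DESeq2 and 2 with the replicate block, and ran from 0 to 5 with single libraries left out. Over all genes in RNA, DESeq2 called 4.46% of those with an adjusted p, and the replicate block called 8.66% of those tested. The range with single libraries left out is listed only, for the reason given below. In Ribo-seq, 2 became 1 with limma-voom (2.08% of all genes called) and 0 with limma on log2 TPM (0.111%). The number was 3 (FLNA, COPA and IGFBP7) without a filter, at a mean count of at least 50, with DESeq2 and with the replicate block. Those settings called 10.9%, 5.26%, 11.9% and 17.5% of genes, in that order. The DESeq2 share is of the genes with an adjusted p and the others are of all genes tested. In translational efficiency, 0 became 2 without a filter on low counts (5.04% of all genes called) and 1 with the replicate block (3.46%). With DESeq2 it became 2 (10.8% of the genes with an adjusted p). The number was 3 with the replicate block by siRNA and number (9.02%), among them IGFBP7 at 0.76 ± 0.19 (edgeR adjusted p = 0.0273). Fits with a single library left out keep 1 library in a group. Their calls over all genes varied widely with the library left out, so no result is read from the member counts in them. Over all genes, calls in RNA went from 32 to 1095 with the replicate block, 430 with DESeq2, 95 without a filter, 73 at a mean count of at least 50, 11 with upper-quartile scaling and 1 with limma on log2 TPM. Replicate numbers share no stated culture, and deviations of same-numbered libraries of the 2 siRNAs correlated at 0.00 in Input and 0.02 in Ribo-seq, so the block rests on numbers alone; those of Input and Ribo-seq correlated at 0.02 for control and 0.32 for ADAR1 siRNA.

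Signs turned for values near 0 and, with single libraries left out, between larger values for some genes. In footprints with limma on log2 TPM, COG3 was -0.04 and COPE -0.01. COPZ1 translational efficiency was -0.07 with limma on log2 TPM, -0.07 with the deposited ratios and -0.19 to 0.32 with single libraries left out. The COG3 translational efficiency change was -0.04 at a mean count of at least 50, -0.21 with limma on log2 TPM and -0.23 with the deposited ratios, and -0.13 to 0.18 with single libraries left out. The median over all genes moved from 0.09 to -0.04 with either TPM-based fit. ADAR's translational efficiency change was -0.10 with the deposited ratios and -1.16 to 0.94 with libraries left out. Leaving out single libraries also turned RNA values of NEIL1 (-0.85 to 0.02), BLCAP (-0.29 to 0.17), IGFBP7 (-0.47 to 0.27) and TMEM63A (-0.05 to 0.02), footprint values of AZIN1 (-0.12 to 0.44) and ODC1 (-0.08 to 0.27), and AZIN1 translational efficiency (-0.44 to 0.04). The cause was not tested. In CPM, which is not divided by length, instead of TPM, 4 of 9 members kept their rank in control Input, 6 in ADAR1 siRNA Input, 2 in control Ribo-seq and 4 in ADAR1 siRNA Ribo-seq. NEIL1 and CYFIP2 were limited by depth. At a mean count of at least 50 NEIL1 had no value, and CYFIP2 had none in Ribo-seq. Both lacked a DESeq2 adjusted p in every comparison and a limma on log2 TPM value in Ribo-seq.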
